A study of Xenopus laevis with 14 samples.

Results

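Transcripts of 6 genes that cells switch on within minutes of stimulation, the NF-kB feedback genes nfkbia and tnfaip3 and the immediate early or stress genes atf3, fos, ier2 and dusp1, were followed in anterior endoderm of Xenopus laevis embryos given Ptf1a mRNA. Every probe set whose platform gene symbol, with .L or .S dropped, was 1 of these 6 was taken, which gave 11 of the 24218 probe sets in the table. They read 9 gene copies, since .L and .S mark the copies of a gene on the separate subgenomes of this species. nfkbia and ier2 had 2 probe sets each, tnfaip3, atf3 and fos 1 each, and dusp1 4, of which 1 is assigned to both dusp1 copies and 1 is an _x_at set, a type whose probes can also bind related transcripts. The genes were chosen by their Ptf1a against GFP differences in intensity on these same arrays, at both stages, so those differences are described here without a p-value and support nothing.

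Ptf1a explants came from embryos injected with 800 pg of Ptf1a mRNA plus 400 pg of GFP mRNA, and GFP explants from embryos injected with 400 pg of GFP mRNA alone. In both groups the mRNA went into 2 dorsal vegetal blastomeres when the embryos had 8 cells. The design thus makes the total mRNA dose differ between the groups along with Ptf1a. Endoderm was dissected at tailbud stage NF32, about 40 hours after injection, or at NF36, about 48 hours after it, and about 15 explants were pooled for each array. There were 3 Ptf1a and 3 GFP arrays at NF32 and 4 and 4 at NF36. Within a stage, a Ptf1a and a GFP array with the same number shared 1 batch of embryos. Genotype, strain and sex are not given in the labels.

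NF-kB is a family of dimeric transcription factors held inactive in the cytoplasm by IkB proteins. Signals from cytokine and Toll-like receptors lead, through adaptors and the IkB kinase complex, to destruction of IkB, and the freed dimers enter the nucleus. Among their first targets are nfkbia, which encodes IkB alpha, and tnfaip3, which encodes a ubiquitin-editing enzyme, and both products shut the signal off again. Immediate early genes such as fos, ier2 and dusp1 need no new protein synthesis for their induction and respond to growth factors, cytokines and MAP kinases, and atf3 responds to many kinds of cell stress.

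The injected gene had higher signal in the explants labelled Ptf1a: the ptf1a probe set read 209.5 to 386.0 in Ptf1a and 7.70 to 18.3 in GFP explants at NF32, and 117.2 to 319.4 in Ptf1a and 25.5 to 33.3 in GFP explants at NF36. Array means lay between 140.19 and 140.36 at NF32 and at 100 at NF36, so each stage had been scaled apart and no level was compared between stages. Of 16 anterior endoderm factors listed 11 were measured, and 16 of their 17 gene copies averaged at least 16 intensity units at each stage. Changes below are Ptf1a minus GFP on the log2(intensity + 16) scale with their SE from limma, and "past the threshold" means that p, adjusted across every probe set measured at that stage, was under 0.05. With the offset of 16, changes of dim probe sets come out smaller than their intensity ratios.

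At NF32, both copies of the gene for IkB alpha and the tnfaip3 gene read several times higher in Ptf1a explants. nfkbia.L had intensities of 560.9, 543.3 and 839.0 on the Ptf1a arrays of replicates 1, 2 and 3, against 281.2, 193.2 and 169.2 on the GFP arrays, a change of 1.53 ± 0.22 and a ratio of means of 3.02. nfkbia.S had 151.4, 158.2 and 234.2 on the Ptf1a arrays, against 54.8, 38.3 and 35.6 on the GFP arrays, a change of 1.73 ± 0.19. tnfaip3.S, whose product trims ubiquitin chains from signalling adaptors, had 93.0, 92.6 and 169.2 on the Ptf1a arrays, against 25.6, 16.1 and 8.9 on the GFP arrays, a change of 2.01 ± 0.26. In all 3 the groups did not overlap. The Ptf1a array of replicate 3 was the highest and the GFP array of replicate 3 the lowest, so the difference within that embryo batch was the widest (2.21 for nfkbia.L, 2.28 for nfkbia.S and 2.89 for tnfaip3.S, against 0.96, 1.24 and 1.39 in batch 1).

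The transcription factor genes of the set were higher at NF32 as well. fos.S, which encodes a subunit of the AP-1 factor, had 35.0, 35.8 and 72.2 on the Ptf1a arrays, against 7.1, 5.8 and 12.6 on the GFP arrays, a change of 1.34 ± 0.23. All 3 of its GFP values lay below the offset of 16 and are not shown to be above background, so no ratio is given. atf3.L, a stress-induced factor of the same bZIP class, had 65.5, 63.7 and 80.8 on the Ptf1a arrays, against 38.8, 32.1 and 29.5 on the GFP arrays, a change of 0.80 ± 0.11. ier2.L had 158.2, 140.6 and 177.0 on the Ptf1a arrays, against 95, 68.5 and 83.3 on the GFP arrays (0.83 ± 0.13). The other copy of this nuclear immediate early protein gene, ier2.S, had 88.0, 85.1 and 144.3 on the Ptf1a arrays, against 49.3, 43.2 and 56.2 on the GFP arrays (0.86 ± 0.19).

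dusp1 encodes a phosphatase that switches off MAP kinases. Its .L copy had the smallest change of the 11 probe sets at NF32, while its .S copy lay close to atf3.L and ier2.L. dusp1.L had 148.0, 140.9 and 154.0 on the Ptf1a arrays, against 98.8, 101.4 and 104.9 on the GFP arrays, a change of 0.47 ± 0.07, and its _x_at set changed by 0.52 ± 0.07. dusp1.S had 72.7, 77.9 and 116.7 on the Ptf1a arrays, against 50.9, 45.9 and 37.4 on the GFP arrays, a change of 0.77 ± 0.17. The probe set assigned to both copies lay between these, at 0.59 ± 0.12. The small dusp1.L change came with an equally small spread: its 3 Ptf1a arrays spanned 140.9 to 154.0.

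**Figure D1:**
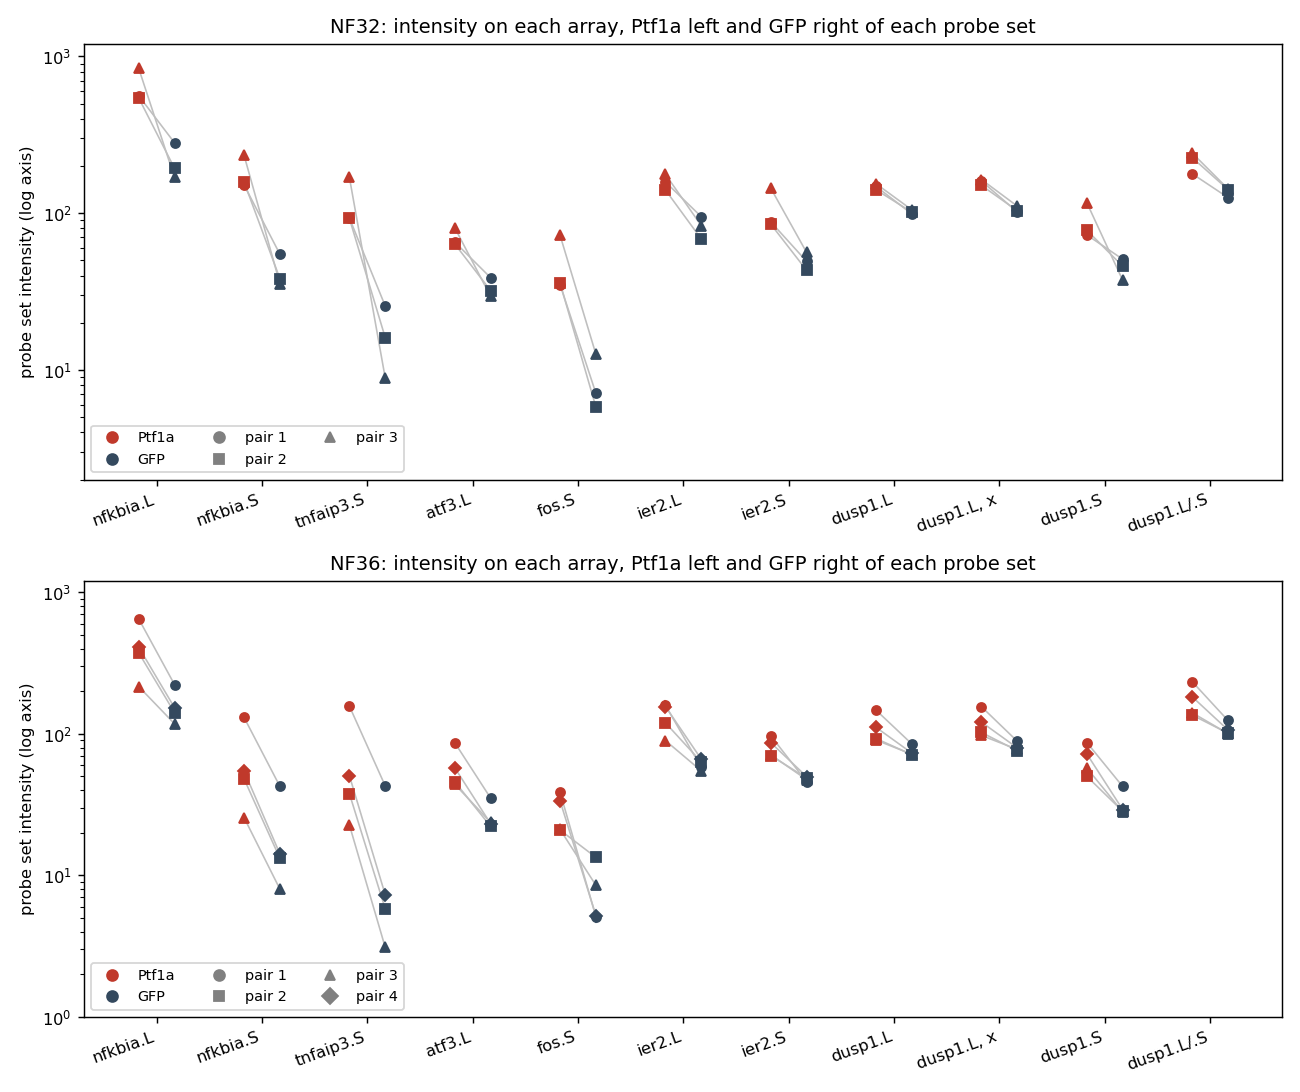
Probe set intensity (log axis) of the 11 probe sets on every array at NF32 (top) and NF36 (bottom). Each point is 1 array, Ptf1a in red left of GFP in dark blue, grey lines join the arrays of 1 embryo batch, and marker shapes give the batch; "dusp1.L, x" is the _x_at set and "dusp1.L/.S" the set assigned to both copies. All lines slope down toward GFP, and at NF36 the circles of batch 1 are highest in both groups for nfkbia, tnfaip3.S, atf3.L and dusp1.

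At NF36 the same 11 probe sets were again higher in Ptf1a explants, but the batches differed more in level. nfkbia.L had 650.1, 374.4, 216.0 and 410.0 on the Ptf1a arrays of replicates 1 to 4, against 223.0, 141.3, 117.8 and 153.1 on the GFP arrays, a change of 1.23 ± 0.30. nfkbia.S had 130.7, 48.1, 25.6 and 54.6 on the Ptf1a arrays, against 42.6, 13.2, 8 and 14.2 on the GFP arrays, a change of 1.12 ± 0.40. tnfaip3.S had 157.0, 37.8, 22.7 and 50.6 on the Ptf1a arrays, against 42.9, 5.8, 3.1 and 7.3 on the GFP arrays, a change of 1.35 ± 0.50. The groups overlapped for these 3, because the GFP array of batch 1 read above the Ptf1a array of batch 3 (and, for tnfaip3.S, also above that of batch 2). Within each of the 4 batches the Ptf1a array was nonetheless the higher one, by 0.79 to 1.48 for nfkbia.L, 0.79 to 1.32 for nfkbia.S and 1.02 to 1.55 for tnfaip3.S.

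The factor and phosphatase genes did not overlap between groups at NF36. fos.S had 38.6, 20.9, 21.1 and 33.5 on the Ptf1a arrays, against 5.1, 13.4, 8.5 and 5.2 on the GFP arrays, a change of 0.88 ± 0.16. atf3.L had 86.7, 45.9, 44.1 and 57.6 on the Ptf1a arrays, against 35.2, 22.2, 23.7 and 23.2 on the GFP arrays, a change of 0.80 ± 0.18. For fos.S the batches with the widest differences were 1 and 4 (1.37 and 1.22), and batch 2, with the highest GFP value, had the narrowest (0.33). ier2.L had 159.3, 119.7, 89.7 and 156.1 on the Ptf1a arrays, against 57.9, 63.4, 54.8 and 66.3 on the GFP arrays (0.92 ± 0.16). ier2.S had 96.9, 70.3, 71.1 and 86.7 on the Ptf1a arrays, against 45.9, 48.7, 47.5 and 49.9 on the GFP arrays (0.59 ± 0.09). Both ier2 copies were even across the GFP arrays, and their spread lay among the Ptf1a arrays. dusp1.L had 146.9, 92.7, 90.4 and 111.1 on the Ptf1a arrays, against 84.7, 71.2, 71.7 and 73.0 on the GFP arrays (0.45 ± 0.13). dusp1.S had 86.9, 50.1, 57.4 and 72.2 on the Ptf1a arrays, against 42.5, 28.4, 28.1 and 29.2 on the GFP arrays (0.77 ± 0.15). The _x_at set of dusp1.L and the set for both copies changed by 0.47 ± 0.13 and 0.58 ± 0.16.

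As a description of the contrast that chose the genes, 8 of the 11 probe sets lay past the threshold in limma at NF32, all higher, where 1.96% of all probe sets were called higher and 3.16% called in either direction. At NF36 it was 5 of 11, where 3.59% of all probe sets were called higher and 5.48% in either direction. Every Ptf1a array lay above every GFP array for all 11 at NF32 (10.7% of all probe sets) and for 8 at NF36 (7.85%), and the Ptf1a array was the higher one in every batch for all 11 at both stages (23.1% and 23.2% of all probe sets). The median change of the 11 was 0.83 at NF32 and 0.80 at NF36, beside -0.0064 and 0.0017 over all probe sets. With the embryo batch as a block, 11 of 11 passed at each stage, beside 5.03% of all probe sets higher and 4.19% lower at NF32, and 12.6% higher and 10.8% lower at NF36. Without the block, the count at NF32 was 5 without GFP replicate 1, 1 without GFP replicate 2 and 4 without Ptf1a replicate 3. Over all 22855 probe sets it was 390, 181 and 304 in these fits, and 723 with all arrays. At NF36 the count of members was 3, 1 and 2 without GFP replicate 2, 3 or 4 and 1 without Ptf1a replicate 4. Over all 23614 probe sets it was 471, 471, 584 and 408 in these fits, and 1294 with all arrays.

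The batch term altered the SE most for the NF-kB feedback genes at NF36. There the SE of tnfaip3.S was 0.09 with the block and 0.50 without it, that of nfkbia.S 0.09 and 0.40, and that of nfkbia.L 0.11 and 0.30. These were 3 of the 6 probe sets that passed at NF36 with the block alone, the others being both dusp1.L sets and the set for both dusp1 copies. At NF32 the block left the SE of these genes where it was (0.27 with the block and 0.26 without it for tnfaip3.S), and no batch was the highest in both groups for them there. For fos.S the pattern was the other way round, with an SE of 0.10 with the block and 0.23 without it at NF32, and 0.17 and 0.16 at NF36. Without the pair of batch 1 at NF36, a fit chosen after seeing the data, nfkbia.S (1.05 ± 0.21) and tnfaip3.S (1.28 ± 0.20) lay past the threshold, while fos.S (0.72 ± 0.16) and ier2.L (0.805 ± 0.17) no longer did.

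**Figure D2:**
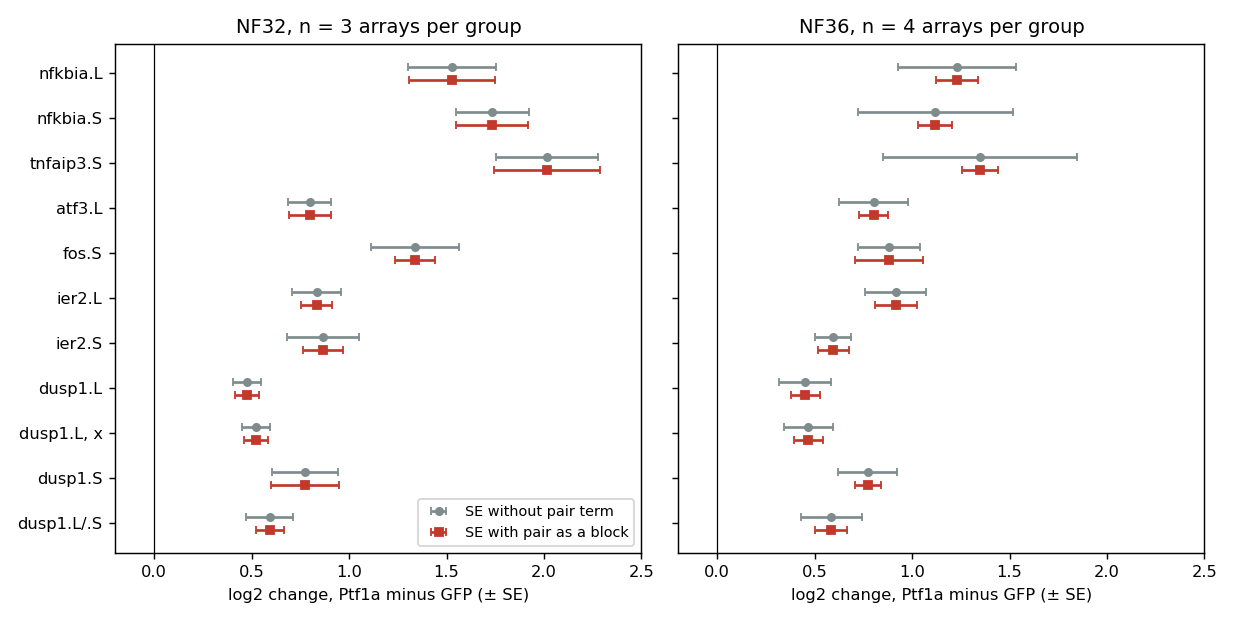
Log2 change, Ptf1a minus GFP, of the 11 probe sets at NF32 (left, n = 3 arrays per group) and NF36 (right, n = 4), with SE bars from the fit without (grey circles) and with (red squares) the embryo batch as a block. All changes lie right of 0, and at NF36 the bars of nfkbia.L, nfkbia.S and tnfaip3.S are much shorter with the block.

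As plain intensity ratios within batches, nfkbia.L was 1.99 to 4.96 times higher on the Ptf1a than on the GFP array at NF32 and 1.83 to 2.92 times higher at NF36. The ratios of nfkbia.S lay between 2.76 and 6.58 at NF32, and those of atf3.L between 1.69 and 2.74. No such ratio is given for fos.S at either stage, for tnfaip3.S, or for nfkbia.S at NF36. GFP values below 16, which are not shown to be above background, were found for fos.S on all GFP arrays, for tnfaip3.S on 1 of 3 at NF32 and 3 of 4 at NF36, and for nfkbia.S on 3 of 4 at NF36.

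The change at NF36 minus the change at NF32 lay between -0.67 and 0.08 over the 11 probe sets. It was -0.67 ± 0.67 for tnfaip3.S, -0.61 ± 0.52 for nfkbia.S, -0.30 ± 0.43 for nfkbia.L and -0.46 ± 0.29 for fos.S. For ier2.S it was -0.27 ± 0.21, and for atf3.L, ier2.L and the 4 dusp1 sets it lay between -0.05 and 0.08. The difference was past the threshold for 0 of the 11 and for 0.777% of 22251 probe sets. These SEs come from a fit without the embryo batch as a block. With SEs of 0.43 to 0.67 for nfkbia and tnfaip3, that fit gives little precision on how their changes compare between stages. Within stages, the SE of tnfaip3.S with the block was 0.27 at NF32 and 0.09 at NF36. The stage difference of the members with the block is not given here. The stages also differed in chip version and scaling, and a stage difference cannot be told apart from these. For probe sets as dim as the offset, such as fos.S, the offset weighs differently on the change at each scaling.

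The members also departed from their group means together. Each array was set against the mean of its own group, with 1 probe set per gene copy. That removes the mean contrast that chose the genes. Any difference between batches in the size of that contrast stays in the departures, so they are not separate from the Ptf1a effect. Over the 14 arrays, Pearson's r of these departures was 0.99 between nfkbia.S and tnfaip3.S, 0.96 between both nfkbia copies and 0.97 between tnfaip3.S and atf3.L. fos.S and ier2.S formed a second close pair (0.90), whereas fos.S and tnfaip3.S stood at 0.34, the lowest of all 36 pairs. The median over the 36 pairs was 0.67. These are descriptions without a test: the arrays of a batch share their embryos, and all genes of an array share its scaling.

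The arrays behind this were few. In the NF36 Ptf1a group replicate 1 was the highest array for all 11 probe sets, as it was for 29.7% of all probe sets, and in the NF36 GFP group for 8 of 11, against 31.8% of all. The 3 exceptions in GFP were fos.S and the ier2 copies. At NF32 the Ptf1a array of replicate 3 was the highest for all 11 (32.7% of all probe sets), while in GFP the highest array was replicate 1 for 6 and replicate 3 for 5. For 8 members at NF36 replicate 1 was the highest in both groups, a pattern found for 19.6% of all probe sets. No cell type list stood highest in that batch in both groups, other than neurons. The summed neuron markers read 1269.4 on its Ptf1a array against 753.2 to 932.0 on the other Ptf1a arrays, and 568.9 on its GFP array against 466.5 to 539.7 on the other GFP arrays. At NF32 the Ptf1a array of replicate 3, highest for all 11 members, had the lowest neuron sum (3179.0, against 3395.9 and 3463.2). The neuron sums of GFP replicates 1, 2 and 3 at NF32 were 924.2, 783.8 and 979.0. The part of neurons in the members' departures was not tested.

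**Figure D3:**
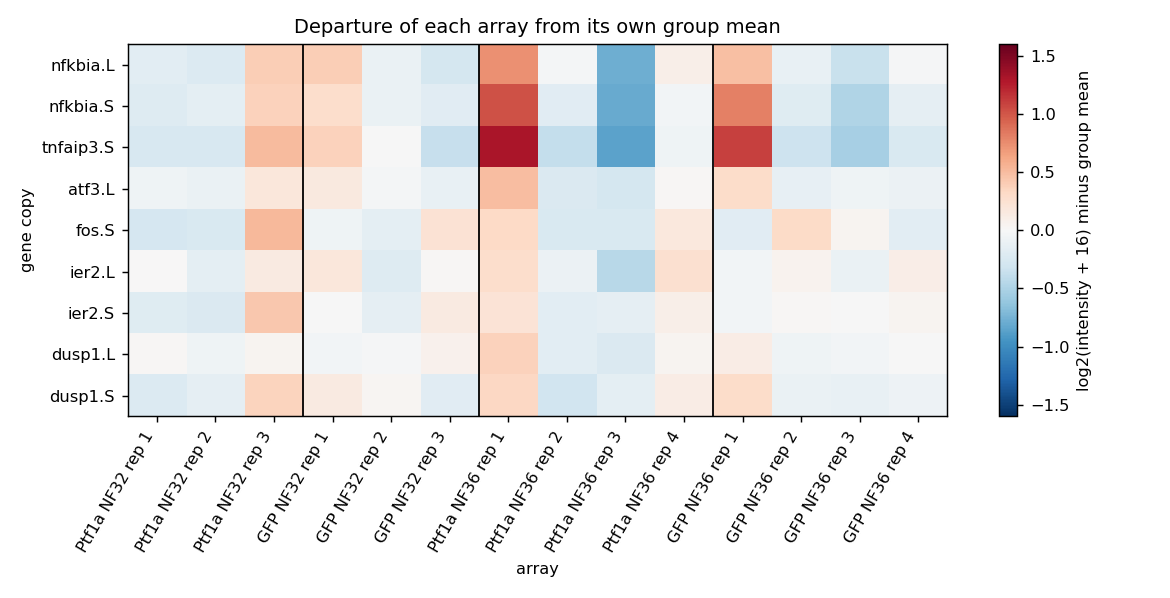
Departure of each array from its own group mean, in log2(intensity + 16), for 1 probe set of each of the 9 gene copies (rows; dusp1.L by its _x_at set) on the 14 arrays (columns, black lines between the groups). Red is above and blue below the group mean. Replicate 1 of NF36 is red in both groups for nfkbia, tnfaip3.S, atf3.L and dusp1, and replicate 3 of the NF32 Ptf1a group is red in all 9 rows.

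Among 6812 probe sets with 1 gene symbol and a mean above the stage median at both stages, those whose departures most resembled the members' mean departure over the 14 arrays were gadd45g.L (r = 0.96), alas1.L (0.96), sdc4.L (0.95), junb.L (0.94), tifa.S (0.93) and phyhdlb.L (0.93). gadd45g encodes a growth arrest protein, junb an AP-1 partner of the fos product, sdc4 a cell surface proteoglycan, alas1 the first enzyme of haem synthesis, and tifa an adaptor on the way to NF-kB. tifa.S read 108.6 on the NF36 Ptf1a array of batch 1 and 28.0 to 53.2 on the others, and 43.4 on the GFP array of batch 1 and 16.9 to 23.7 on the others. The required mean was taken over Ptf1a and GFP arrays together, and junb.L, tifa.S and phyhdlb.L met it through their Ptf1a arrays, so the Ptf1a contrast had a part in the choice and the changes of these 6 are a description. In limma at NF32 they were 1.27 ± 0.17 for gadd45g.L, 0.64 ± 0.12 for alas1.L and 1.02 ± 0.11 for sdc4.L. For junb.L the change was 1.53 ± 0.16, for tifa.S 1.02 ± 0.12 and for phyhdlb.L 4.38 ± 0.29. At NF36 they were 0.92 ± 0.19 for gadd45g.L, 0.63 ± 0.20 for alas1.L and 1.12 ± 0.16 for sdc4.L. There junb.L had 1.60 ± 0.25, tifa.S 0.71 ± 0.32 and phyhdlb.L 3.07 ± 0.81. Of the 6, alas1.L, tifa.S and phyhdlb.L were not past the threshold at NF36.

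The rest of the pathway was read from 8 lists that left out the members, with 1 probe set per gene copy. The lists too were chosen with earlier results of these data known. Their counts and p-values, here and below, are therefore a description and no independent evidence. At NF32, 16 of 123 listed genes passed in limma, all higher, where 1.96% of all probe sets were called higher and 1.20% lower. At NF36, 24 of 126 passed, all higher, where 3.59% were called higher and 1.89% lower. With the batch as a block 33 rose and 2 fell at NF32, where 5.03% of all probe sets were called higher and 4.19% lower. At NF36 54 rose and 5 fell with the block, where 12.6% were called higher and 10.8% lower. Without the block, the count was 7, 9 and 7 without GFP replicate 2, Ptf1a replicate 2 or Ptf1a replicate 3 of NF32. Over all probe sets it was 181, 369 and 304 there, and 723 with all arrays. At NF36 the count of listed genes was 12, 6, 8 and 8 without GFP replicate 1, 2, 3 or 4 (758, 471, 471 and 584 of all probe sets). It was 12, 14 and 7 without Ptf1a replicate 1, 2 or 4 (1062, 588 and 408 of all). Without the pair of batch 1 it was 15 (830 of all), and 1294 of all probe sets passed with all arrays.

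In the list of ligands and receptors, cxcl8.L and il1b.S rose at both stages. Only 4 of the 29 ligand and receptor genes listed were measured. Of these 4, 3 passed at each stage, all higher, with a median of 3.26 at NF32 and 2.89 at NF36. cxcl8.L, the gene of a neutrophil-attracting chemokine that is itself an NF-kB target, had 734.4, 784.2 and 1167.7 on the NF32 Ptf1a arrays, against 124.2, 66.5 and 19.0 on the GFP arrays (3.59 ± 0.47, adjusted p = 0.0135). il1b.S, the gene of the cytokine interleukin 1 beta, had 278.0, 309.7 and 641.1 on the Ptf1a arrays, against 63.7, 22.3 and 1.2 on the GFP arrays (3.41 ± 0.56, adjusted p = 0.0268). Within the NF32 GFP group both followed the order of nfkbia and tnfaip3, highest in replicate 1 and lowest in replicate 3. At NF36, il1b.S had 448.8, 137.0, 87.9 and 196.4 on the Ptf1a arrays, against 57.3, 3.3, 3.4 and 3.8 on the GFP arrays (2.87 ± 0.56, adjusted p = 0.0254). The il1b.S GFP values of 3.3, 3.4 and 3.8 at NF36 lay below 16 and are not shown to be above background. cxcl8.L changed by 3.32 ± 0.77 there (adjusted p = 0.0444), and with the batch as a block adjusted p was 4.74e-04 for il1b.S and 0.00154 for cxcl8.L. The flagellin receptor gene tlr5.L rose at NF36 (0.44 ± 0.09, adjusted p = 0.0325), and stood at 0.06 ± 0.12 at NF32 (adjusted p = 0.87). The related tlrs5.L rose at NF32 (3.11 ± 0.47, adjusted p = 0.021) and stood at 2.91 ± 0.71 at NF36 (adjusted p = 0.0523, and 0.0013 with the block). These calls held in 4 of 6 fits that left out 1 array for cxcl8.L, 2 for il1b.S and 3 for tlrs5.L at NF32, and at NF36 in 1 of 8 for cxcl8.L, 3 for il1b.S and 2 for tlr5.L, which did not pass without the pair of batch 1. The call of il1b.S at NF32, where 1 GFP value was 1.2, was lost with an offset of 1 (adjusted p = 0.107). At NF36 the call of il1b.S was lost with an offset of 64 (adjusted p = 0.0505) and that of cxcl8.L with offsets of 1 and 64 (adjusted p = 0.0522 and 0.062).

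Few adaptor, kinase and Rel factor genes passed. Of 19 adaptor and kinase genes traf6.S, the gene of a ubiquitin ligase that joins Toll and interleukin 1 receptors to the IkB kinases, rose at NF32 (72.2 ± 3.87 in Ptf1a and 35.7 ± 4.06 in GFP explants, SD, n = 3 each). Its change was 0.77 ± 0.09 in limma (adjusted p = 0.00703), and the call held without each of the 6 arrays in turn. Its list had a median of 0.01 at NF32 and 0.10 at NF36, where 0 of 21 passed in limma (4 had an unadjusted p under 0.05) and 4 did with the block. The adaptor gene myd88.L stood at 0.55 ± 0.14 at NF36 (adjusted p = 0.0577, and 0.00302 with the block) and tbk1.L at 0.23 ± 0.07 (adjusted p = 0.0829, and 0.011 with the block). myd88.S stood at 0.25 ± 0.08 at NF32 (adjusted p = 0.192, and 0.107 with the block). Of the 6 measured Rel factor and IkB genes 0 passed at either stage in limma, where 3 at NF32 and 1 at NF36 had an unadjusted p under 0.05, and with the block 0 passed at NF32 and 1 at NF36. The p50 precursor gene nfkb1.L had 0.38 ± 0.09 at NF32 (adjusted p = 0.0713), relb.S had 0.26 ± 0.07 at NF32 (adjusted p = 0.132) and 0.15 ± 0.10 at NF36 (adjusted p = 0.517), and rela.L had 0.20 ± 0.07 at NF36 (adjusted p = 0.176, and 0.0195 with the block). nfkbie.L, the gene of another IkB protein and named after its values were seen, had 0.20 ± 0.10 at NF32 and 0.07 ± 0.07 at NF36.

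Among 14 further feedback genes of NF-kB and cytokine signalling, 4 passed at NF32 and 2 at NF36, all higher, with medians of 0.13 and 0.18. tnip2.L, which encodes a ubiquitin-binding partner of the tnfaip3 product, had 104.1, 88.5 and 115.9 on the NF32 Ptf1a arrays, against 31.6, 15.5 and 15.5 on the GFP arrays (1.71 ± 0.18, adjusted p = 0.00604). The second such partner, tnip1.S, rose by 1.03 ± 0.16 (adjusted p = 0.0216). socs3.S, whose product inhibits cytokine receptor signalling, rose by 1.37 ± 0.13 (adjusted p = 0.0044) and socs3.L by 1.20 ± 0.22 (adjusted p = 0.0347). All GFP values of both socs3 copies lay below 16 at both stages and are not shown to be above background. Neither copy was tested at NF32 in the fit without dim probe sets. At NF36 tnip2.L (1.39 ± 0.32, adjusted p = 0.0436) and socs3.S (1.11 ± 0.26, adjusted p = 0.0444) passed, and 7 genes rose and 1 fell with the block. At NF32 tnip2.L and socs3.S held in 6 of 6 fits that left out 1 array, tnip1.S in 3 and socs3.L in 2, and socs3.L did not pass with an offset of 64 (adjusted p = 0.0838). At NF36 tnip2.L held in 2 of 8 and socs3.S in 1, and neither passed without the pair of batch 1 or with an offset of 64 (adjusted p = 0.0902 and 0.0913).

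Of 38 immediate early genes outside the member set, 8 passed at NF32, all higher (median 0.38), and 37 had a change above 0, as did 48.3% of all probe sets. Of 39 at NF36, 15 passed, all higher (median 0.34), and 35 had a change above 0, as did 50.6% of all probe sets, with 21 and 28 higher and none lower in the block fits. junb.L, an AP-1 gene, had 117.7, 125.8 and 181.2 on the NF32 Ptf1a arrays, against 43.2, 33.0 and 37.6 on the GFP arrays (1.53 ± 0.16, adjusted p = 0.00583). At NF36 it had 142.8, 68.2, 58.3 and 130.3 on the Ptf1a arrays, against 27.4, 19.3, 18.1 and 16.9 on the GFP arrays (1.60 ± 0.25, adjusted p = 0.0123). Its groups did not overlap at either stage, and the call held in all 14 fits of both stages that left out 1 array. At NF32 the mRNA-destabilising factor gene zfp36.S (0.93 ± 0.11, adjusted p = 0.00959), the kinase gene pim1.L (0.61 ± 0.07, adjusted p = 0.00856) and the antiproliferative gene btg2.S (0.92 ± 0.13, adjusted p = 0.0167) rose as well. Of these, zfp36.S and pim1.L held in 6 of 6 fits that left out 1 array and btg2.S in 3. At NF36 pim1.L (adjusted p = 0.0201) and btg2.S (adjusted p = 0.024) passed too, and zfp36.S did not (adjusted p = 0.186, and 0.0134 with the block). There the prostaglandin synthase gene ptgs2.S rose by 1.097 ± 0.12 (adjusted p = 0.00517), the matricellular gene ccn2.L by 0.95 ± 0.11 (adjusted p = 0.00587) and the kinase gene sgk1.L by 1.575 ± 0.26 (adjusted p = 0.0154). At NF32 ptgs2.S, ccn2.L and sgk1.L did not pass (adjusted p = 0.455, 0.125 and 0.0617). With the block ccn2.L and sgk1.L passed at NF32 (adjusted p = 0.0323 and 0.00397).

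**Figure D4:**
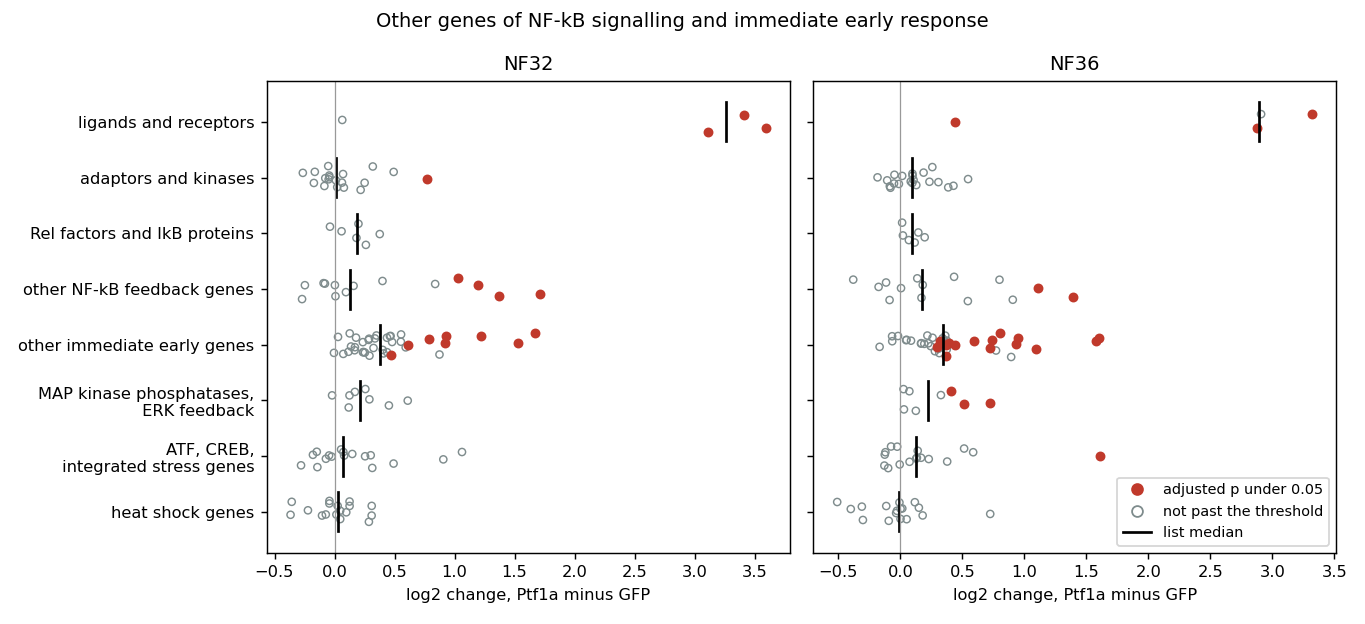
Log2 change, Ptf1a minus GFP, of the genes of 8 pathway lists at NF32 (left) and NF36 (right), members left out. Each point is 1 gene copy, filled red when past the threshold, the vertical black bars are list medians, and points are spread vertically only to be seen. The called genes lie right of 0 and most of them belong to the ligand, feedback and immediate early lists.

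Beside dusp1, MAP kinase phosphatases and ERK feedback genes passed at NF36. dusp6.L, the gene of an ERK-specific phosphatase, had 104.4, 106.8, 84.5 and 110.0 on the Ptf1a arrays, against 57.1, 54.6, 53.0 and 54.7 on the GFP arrays (0.72 ± 0.08, adjusted p = 0.00505). dusp6.S (0.51 ± 0.10, adjusted p = 0.03) and spry2.S, the gene of a receptor tyrosine kinase inhibitor (0.41 ± 0.08, adjusted p = 0.0297), rose too, 3 of 8 genes in all. dusp6.L held in 8 of 8 fits that left out 1 array, and dusp6.S and spry2.S each in 1, and the calls of dusp6.S and spry2.S were lost without the pair of batch 1. In contrast to the members, batch 1 was not the highest array for dusp6.L in the Ptf1a group. At NF32, 0 of the 8 passed in limma, where 2 had an unadjusted p under 0.05 and 2 passed with the block, with 0.45 ± 0.15 for dusp6.L and 0.61 ± 0.21 for dusp6.S.

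Few stress genes around atf3 passed. Of 17 ATF, CREB and integrated stress genes 0 passed at NF32 in limma or with the block (median 0.07), and 6 had an unadjusted p under 0.05 in limma. At NF36, where the list median was 0.13, 1 of 17 passed in limma, 4 had an unadjusted p under 0.05, and 5 were higher in the block fit. The gene that passed was the acute-phase factor gene cebpd.S (188 ± 31.0 in Ptf1a and 51.9 ± 15.6 in GFP explants, SD, n = 4 each, change 1.61 ± 0.19, adjusted p = 0.00589). ddit3.L, the gene of the endoplasmic reticulum stress factor CHOP, had 0.31 ± 0.09 at NF32 (adjusted p = 0.122) and 0.38 ± 0.09 at NF36 (adjusted p = 0.0501), and cebpd.L had 0.91 ± 0.23 at NF32 (adjusted p = 0.0951). Of 17 heat shock genes 0 passed at either stage in limma, where 2 and 5 had an unadjusted p under 0.05, with medians of 0.03 and -0.0070. The mitochondrial chaperonin gene hspd1.S had -0.37 ± 0.08 at NF32 (adjusted p = 0.0559) and -0.40 ± 0.11 at NF36 (adjusted p = 0.078), and hspe1.L -0.36 ± 0.09 at NF32 (adjusted p = 0.0881). hsp70.L had 0.72 ± 0.22 at NF36 (adjusted p = 0.0956, and 0.026 with the block). With the block 2 heat shock genes fell at NF32, and 4 fell and 1 rose at NF36. Of 120 listed genes measured at both stages, 0 had a change that differed between the stages past the threshold in limma (6 had an unadjusted p under 0.05). With the block 1 did, spry2.S (0.29 ± 0.07, adjusted p = 0.0396). Here too stage cannot be told apart from chip version and scaling.

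Markers of other cell types moved between the groups too, and in pooled tissue a change in the number of cells and a change of RNA per cell cannot be told apart. Leukocyte markers fell for 10 of 15 and rose for none at NF32 in limma. Their summed intensities were 216.6 to 474.0 in Ptf1a and 1566.3 to 2145.2 in GFP explants. At NF36, 6 of 17 fell and none rose in limma, and 10 fell and 1 rose with the block. The sums there were 481.1 to 851.5 in Ptf1a and 990.4 to 1286.7 in GFP explants. Neuron markers rose, 20 of 28 at NF32 (sums of 3179.0 to 3463.2 in Ptf1a and 783.8 to 979.0 in GFP explants) and 6 of 28 at NF36 (753.2 to 1269.4 in Ptf1a and 466.5 to 568.9 in GFP explants). Epidermis markers rose for 1 of 20 at NF32 (17574.9 to 20748.7 in Ptf1a and 17074.7 to 19712.7 in GFP explants) and 13 of 19 at NF36 (6693.8 to 8234.4 in Ptf1a and 2596.4 to 4179.7 in GFP explants). Red blood cell markers fell for 7 of 12 and rose for 1 at NF32 in limma. At NF36, 1 of 14 fell in limma (13 at an unadjusted p under 0.05, and 12 lower with the block), with a list median of -0.934. The red blood cell sums at NF36 were 902.5 to 4358.7 in Ptf1a and 3318.5 to 7981.6 in GFP explants. Heart and smooth muscle markers fell for 8 of 15 at NF32. At NF36 1 of 16 rose in limma (10 at an unadjusted p under 0.05, and 2 higher with the block), with a list median of 0.662. Of endothelium markers 1 of 8 fell at NF32 and 0 of 8 passed at NF36 in limma (2 at an unadjusted p under 0.05, and 3 with the block). Of skeletal muscle markers 0 of 12 passed at NF32 in limma (9 at an unadjusted p under 0.05, and 2 higher with the block). There 11 had a change above 0, with a list median of 2.164. The sums were 3060.0 to 6936.6 in Ptf1a and 349.2 to 2650.1 in GFP explants. At NF36, 2 of 14 fell in limma, and 1 rose and 3 fell with the block, while 10 had a change above 0 (list median 0.55). Of anterior endoderm factors 2 of 17 fell at NF32 (6 with the block), with sums of 2082.6 to 2464.4 in Ptf1a and 2703.8 to 2801.3 in GFP explants. At NF36 1 rose and 1 fell (2 rose and 7 fell with the block). Their sums there were 2416.6 to 2649.4 in Ptf1a and 2570.5 to 2922.2 in GFP explants. The part of these cell types in the values of nfkbia, tnfaip3, atf3, fos, ier2 and dusp1 was not tested.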

How the data were processed

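The authors deposited linear probe set intensity values from biotin-labelled RNA on Affymetrix arrays, 1 column per array. PLIER is listed in the submitters' processing notes. Its version and role, the scaling and any filter are not stated there. Per the labels, NF32 and NF36 samples were run on different chip versions, whereas the deposited intensity values of both stages share probe set identifiers. Depth has no meaning for arrays, and 3 or 4 arrays per group limit the precision.

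Values were taken as log2(intensity + 16) with no further normalization, and Ptf1a was compared with GFP within each stage in limma 3.58.1 (R 4.3.3), two-sided, with Benjamini-Hochberg adjustment over all 22855 (NF32) or 23614 (NF36) probe sets. The difference of changes between stages came from 1 fit over 14 arrays and 22251 probe sets. Names are those of the platform annotation: 12795 probe sets had 1 symbol, 238 several and 11185 none. The 12 symbol entries of the members matched RefSeq by Entrez ID. The labels tie equal replicate numbers to 1 embryo batch. As a check, departures from the group mean correlated across probe sets by 0.297 to 0.711 (NF32) and 0.639 to 0.765 (NF36) between arrays of a batch, and by at most 0.257 and 0.022 otherwise. No pair of arrays in a group shared over 0.94% of its values.

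Members and lists were chosen with earlier results of these data known. Text names all members; per list and stage, at most 4 called genes in order of p, and in lists with under 2 calls the 2 lowest p; and 6 genes by likeness of within-group departures. A list gene is read by its brightest probe set of the stage. That mean was taken over Ptf1a and GFP arrays together, so the Ptf1a contrast can have a part in the choice. The fit within each stage, without the block, was tested on simulated data whose noise was independent between arrays. The simulation held no embryo batches, and the block fits and the stage difference fit were not tested in it. Alternatives were offsets of 1 and 64, quantile and median normalization, a filter at the 40th percentile of mean signal, the batch as a block, trend and robust eBayes, array weights (statmod 1.5.0), gene means and leaving out each array; leaving out the pair of batch 1 was added after seeing the data.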

Additional observations from a re-analysis of the deposited data

Results flagged for a closer look

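In the groups of 4 arrays at NF36, 62 sets of 4 values, from members and the pathway genes named at that stage, were screened. An array was flagged when its gap to its nearest neighbour, over the range, exceeded the 95% critical value of Dixon's test for 4 values. For normally distributed values about 1 of 20 groups exceeds it. The gaps were taken on intensities, which need not be normally distributed, so the count cannot be set against that rate. Of the 62 sets, 12 had a flagged array. GFP replicate 1 stood out high for 8 of them: tnfaip3.S (42.9), atf3.L (35.2), dusp1.L (84.7), dusp1.S (42.5), cxcl8.L (245.3), il1b.S (57.3), tnip2.L (19.9) and socs3.S (9.3). Ptf1a replicate 1 stood out high for hsp70.L (128.3). Low arrays were GFP replicate 3 for rela.L (106.8), GFP replicate 4 for cebpd.S (28.7) and GFP replicate 2 for hsp70.L (26.1). The sets share arrays and batches and are not independent of each other, and the origin of the high values of that batch was not tested.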

How the results depend on the processing

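All 164 member values over the NF32 settings and all 197 over the NF36 settings, every alternative and left-out array included, had a change above 0. The members were chosen by this contrast, and the groups did not overlap for 11 of them at NF32 and 8 at NF36. For these, leaving out an array or changing the offset could not reverse the sign, so the signs support nothing. At NF32 the count of 8 members past the threshold stayed between 7 and 11 under the settings that kept all arrays, and between 1 and 7 without 1 array. At NF36 the count of 5 was 11 with the replicate block, 9 with array weights, 1 to 7 without 1 array and 4 to 5 under the other settings, including 5 without the pair of batch 1. Without dim probe sets fos.S was not tested at either stage and 7 and 4 of 10 members passed. For pathway genes the NF32 count of 16 was 35 with the replicate block and 7 to 14 without 1 array, and the NF36 count of 24 was 59 with the replicate block, 6 to 27 without 1 array and 15 without the pair of batch 1. With log2(value + 64) it was 15 and 16. The stage difference of pathway genes gave 0 calls in limma, where 6 of 120 had an unadjusted p under 0.05. It gave 1 call with the replicate block and 0 without any 1 array. None of the 63 changes of members and pathway genes recomputed under the alternatives changed direction. Not recomputed were gadd45g.L, alas1.L, sdc4.L, tifa.S, phyhdlb.L, nfkbie.L, traf6.L, junb.S, tlr5.L at NF32, and tlrs5.L and cebpd.L at NF36. Over all probe sets, 723 passed at NF32 and 1294 at NF36, 2107 and 5531 with the replicate block, and 314 and 769 without dim probe sets, where fewer probe sets were tested. Without 1 array, 181 to 564 of all probe sets passed at NF32 and 408 to 1344 at NF36. The cause of other changes of calls was not tested. Small differences of dim genes such as fos.S are limited by the signal over background.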

Other observations

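Copies of a gene, and probe sets of 1 copy, did not always change alike, in values chosen after they were seen. The 2 probe sets assigned to junb.S differed at both stages: Xl2.56932.1.S1_at rose by 1.67 ± 0.24 at NF32 (adjusted p = 0.0182 in limma) and 1.13 ± 0.17 at NF36 (adjusted p = 0.0122), whereas Xl2.52744.1.S1_at stood at 0.08 ± 0.11 (adjusted p = 0.8) and 0.09 ± 0.11 (adjusted p = 0.806). The list counts read junb.S by the brighter set of each stage, which was the first at NF32 and the second at NF36. Brightness was the mean over Ptf1a and GFP arrays together. At NF32 the first set had means of 88.7 in Ptf1a and 15.7 in GFP explants, and the second 38.9 and 35.9. The Ptf1a contrast thus had a part in that choice, and junb.S is among the genes counted as called at NF32. For the adaptor traf6, the .S copy rose at NF32 while traf6.L had -0.16 ± 0.08 (adjusted p = 0.364). At NF36 cebpd.S rose and cebpd.L had -0.08 ± 0.19 (394 ± 90.1 in Ptf1a and 414 ± 91.3 in GFP explants, SD, n = 4 each). Differences between copies were not tested.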
